A study of Mus musculus with 6 samples.

Results

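D2 medium spiny neurons are the striatal projection neurons of the indirect pathway, which carry the dopamine receptor Drd2, the adenosine receptor Adora2a and the enkephalin precursor Penk. In a table of single-nucleus RNA profiles of mouse striatum, 6940 of 48834 nuclei (14.21%) were taken as D2 nuclei. A nucleus had to meet 5 conditions on its deposited values: Rgs9 plus Pde10a of at least 8, Drd2 plus Adora2a plus Penk of at least 4, Drd1 plus Tac1 plus Pdyn of at most 2, Otof plus Col11a1 plus Casz1 plus Tshz1 of at most 3, and Mog plus Mag of at most 1. These 14 genes chose the nuclei and were not tested in them; Drd2, Adora2a and Penk were compared between genotypes only in nuclei chosen without the gene in question.

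The tissue was dissected, frozen mouse striatum in 2 groups of 3 biological replicates, wild type and heterozygous for Celsr3, a seven-pass cadherin of the planar cell polarity family. Each replicate gave 1 library of nuclear RNA by droplet-based 3′ sequencing (10x Genomics). The labels name genotype and tissue, and no treatment, sex, age, strain, allele design or litter. The study's title places the comparison in the context of tic-related behavior and striatal dopamine. Each value behaves as a molecule count that was corrected for depth and then rounded, so the depth before correction is unknown. "Level" below is the mean of this value per nucleus in 1 library, compared only within a gene.

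Medium spiny neurons are the GABAergic output cells of the striatum. Those of the indirect pathway project to the external globus pallidus, and their Drd2 receptor couples to inhibitory G proteins and lowers cAMP, whereas their Adora2a receptor couples to the stimulatory G protein Gnal and raises it through the adenylyl cyclase Adcy5. Those of the direct pathway carry Drd1, substance P (Tac1) and dynorphin (Pdyn) instead. Both kinds lie in the striosome and matrix compartments and along a dorsal to ventral axis.

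The wild-type libraries gave 911, 1631 and 1126 D2 nuclei and the heterozygous libraries 1082, 1166 and 1024. The first condition left 21173 nuclei, the limits on eccentric medium spiny neuron genes and on myelin genes left 18955, the limit on direct-pathway genes left 14879, and the indirect-pathway sum left 6940. A further 226 nuclei met all conditions except that on Drd1, Tac1 and Pdyn, and 103 of them had both sums at 4 or more. The sum of Drd2, Adora2a and Penk had 2 peaks among the nuclei that met the other conditions, with 4705 nuclei at 0 and 674 at 9. Between the peaks, 405 nuclei stood at the limit of 4, next to 482 just outside it at 3. Just inside the limit, nuclei had a mean of 1.07 for the kainate receptor subunit Grik3 and 0.62 for the direct-pathway factor Ebf1. Just outside it these were 0.772 and 1.06, so the means on either side of the limit were of the same order.

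**Figure D1:**
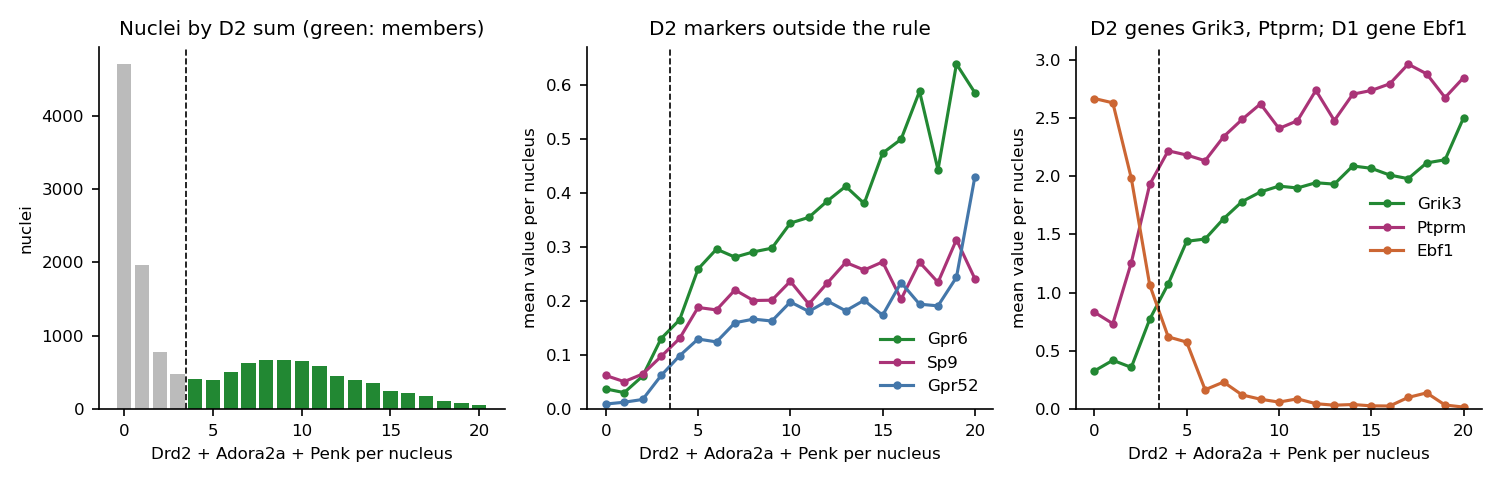
Nuclei that met the other 4 conditions, by the sum of Drd2, Adora2a and Penk from 0 to 20: their number (green bars are members), and the mean value per nucleus of Gpr6, Sp9 and Gpr52, which the rule did not use, and of Grik3, Ptprm and Ebf1. The D2 genes climb and Ebf1 declines across the dashed limit, from 2.67 for Ebf1 at a sum of 0 to 0.62 at a sum of 4.

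Markers of D2 neurons outside the rule went with the name. Gpr6, an orphan receptor of this cell type, had a level of 0.446, 0.322 and 0.347 in wild-type and 0.354, 0.327 and 0.454 in heterozygous replicates 1 to 3. In direct-pathway (D1) nuclei, taken by the mirrored rule (Drd1 plus Tac1 plus Pdyn of at least 4, Drd2 plus Adora2a plus Penk of at most 2), it averaged 0.0363. The zinc-finger factor Sp9, which D2 neurons need for their development, ran from 0.197 to 0.249 in the 6 libraries against a mean of 0.0495 in D1 nuclei. The orphan receptor Gpr52 ran from 0.141 to 0.212 against 0.0131. All 3 were higher in the D2 than in the D1 nuclei in every library. The D1 factors Ebf1 and Isl1 stood at 0.142 ± 0.052 and 0.0168 ± 0.0048 (SD, n = 6 libraries) in D2 nuclei, against 3.12 ± 0.488 and 0.293 ± 0.00998 in D1 nuclei.

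The median number of genes per D2 nucleus lay between 3090 and 3385.5 over the 6 libraries, and the median summed value between 7255.5 and 7325. RNA of other cell types was present: the summed level of 6 oligodendrocyte genes, of which the rule limits Mog and Mag, was 6.81, 6.50 and 6.44 in wild-type and 3.79, 4.08 and 7.71 in heterozygous D2 nuclei, against 53.0 in nuclei outside the spiny neurons. It was lowest in heterozygous replicates 1 and 2. The summed level of 5 microglial genes was 1.11 to 1.21 in wild-type and 0.958 to 1.03 in heterozygous libraries, against 3.41 outside the spiny neurons. A doublet score above 0.25 was found in 82 D2 nuclei (1.182%). The share was highest in heterozygous replicate 1 (2.40%), and 0.711% to 1.17% in the other libraries. Across libraries 274 cell barcodes occurred more than once, and 12 D2 nuclei carried 1 of 6 barcodes that another D2 nucleus also had.

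D2 nuclei made up 11.8%, 20.7% and 13.9% of all nuclei in wild-type replicates 1 to 3, and 13.7%, 13.9% and 11.5% in heterozygous replicates 1 to 3. Wild-type replicate 2 stood above the other 5 libraries, and the groups overlapped (15.5 ± 4.64% against 13.1 ± 1.33%, SD over 3 libraries per genotype; two-sided exact permutation test, p = 0.5). As a share of all nuclei with the spiny neuron sum, they were 33.5%, 37.6% and 33.0% in wild-type and 28.4%, 31.7% and 31.7% in heterozygous libraries. These groups did not overlap (34.7 ± 2.51% against 30.6 ± 1.89%, SD over 3 libraries per genotype; two-sided exact permutation test, p = 0.1), and 0.1 is the smallest p that 3 against 3 libraries can give. The difference was -4.12 percentage points, and -2.68 without wild-type replicate 2. As a share of D1 plus D2 nuclei they were 77.5 ± 5.02% in wild-type mice and 73.1 ± 1.49% in Celsr3 heterozygotes (SD over 3 libraries per genotype; exact permutation test, p = 0.3). With stricter membership, which left 198 D1 nuclei, they were 94.7 ± 3.66% and 93.6 ± 0.733% (exact permutation p = 0.7). With looser membership they were 60.4 ± 2.66% and 56.8 ± 0.498%, without overlap (exact permutation p = 0.1). That share depends on how high each marker sum runs and is no ratio of cell numbers: the mirrored rule found 2258 D1 nuclei, and with a limit of 2 on the own sum there were 8207 D2 and 5994 D1 nuclei. Median genes per D2 nucleus were 3244 ± 30.02 and 3281 ± 166 (SD over 3 libraries per genotype; exact permutation test, p = 0.9), and the median summed values 7280 ± 39.4 and 7284 ± 23.4 (exact permutation p = 0.8).

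The levels of single genes in D2 nuclei were set against those in D1 nuclei of the same library. Of 6508 genes with a level of at least 0.2 in the higher class, 49 (0.753%) were at least 2-fold above D1 in the median library and above it in 6 of 6 libraries, and 84 (1.29%) were below it by the same measure. Nuclei were chosen on genes of this same contrast, so the levels are a description with no test. With a stricter rule for both classes (own sum of at least 8, other sum of 0) the counts were 90 and 150. That rule left 198 D1 nuclei, 16 to 45 per library, so these D1 levels rest on few nuclei. With a looser rule for D1 they were 41 and 78, and all 15 genes named above D1 and all 10 named below it kept a 2-fold difference.

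Among receptors, Grik3, a kainate-type glutamate receptor subunit, had a level of 1.82 ± 0.133 in D2 and 0.0555 ± 0.0223 in D1 nuclei (SD, n = 6 libraries here and below), a 32.7-fold difference. Oprd1, the delta opioid receptor that binds enkephalin, stood at 0.681 ± 0.0725 against 0.0228 ± 0.00783, 29.8-fold. Chrm3, a muscarinic acetylcholine receptor coupled to Gq, stood at 3.51 ± 0.545 against 0.219 ± 0.0753, 16.1-fold. The serotonin receptors Htr7 and Htr4 were 3.88-fold and 2.07-fold higher in D2 nuclei, and the purinergic receptor P2ry1 3.63-fold. Drd3 went the other way: its level was 3.201-fold higher in D1 nuclei.

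Among surface and guidance proteins, the receptor phosphatase Ptprm was 13.9-fold, the netrin receptor Unc5d 9.68-fold, Plxdc1 12.2-fold and the receptor tyrosine kinase Alk 6.25-fold above D1 nuclei. The secreted protein Nell1 was 12.8-fold above D1 nuclei. The calcium-binding protein Necab1 (6.69-fold), adenosine kinase Adk (5.18-fold), the cation channel Trpc4 (5.06-fold), the Polycomb-group gene Sfmbt2 (6.63-fold), Gucd1 (4.24-fold) and Sp9 (4.57-fold) complete the 15 genes farthest above, with the genes of the rule left out. Adk clears adenosine, the ligand of Adora2a, by phosphorylating it. Upb1, a pyrimidine breakdown enzyme listed as a D2 marker, ran from 0.135 to 0.201 in the libraries, with a mean of 0.160 that is below the limit of 0.2, and stood 37.7-fold above D1.

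The genes farthest below D1 included 3 transcription factors: Ebf1 was 22.0-fold, Isl1 17.4-fold and Zfp521 11.2-fold lower in D2 nuclei. The Ebf1 level of D2 nuclei came in part from those near the limit, with means of 0.62 and 0.575 in the 405 and 393 nuclei at a sum of 4 and 5, against 0.0846 in the 674 at a sum of 9. Adhesion genes were also among them, with Lingo2 21.3-fold lower (0.714 ± 0.131 against 15.2 ± 0.708), Il1rapl2 9.33-fold and Cntnap3 7.06-fold. Impg1 was 26.3-fold, the syntrophin Sntg2 15.3-fold, Slc35d3, a membrane protein that takes part in Drd1 trafficking, 13.4-fold, and the growth factor Mdk 7.64-fold lower. The forkhead factor Foxp2 was 3.46-fold lower in D2 nuclei. Parts of the shared machinery were close to equal: Adcy5 had a level of 5.09 in D2 and 5.05 in D1 nuclei, Gnal 5.84 and 5.36, and the protein phosphatase inhibitor Ppp1r1b (DARPP-32) 0.752 and 0.878.

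**Figure D2:**
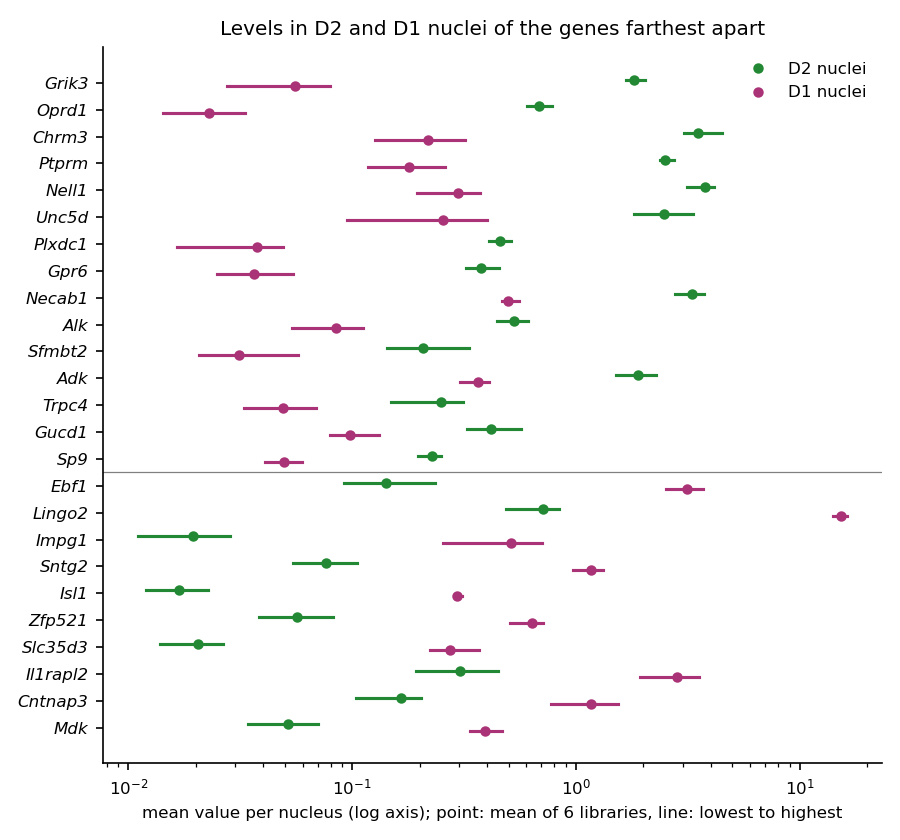
Level, as the mean deposited value per nucleus on a log axis, of the 15 genes farthest above and the 10 farthest below D1 nuclei, genes of the rule left out. Points are means of 6 libraries and lines run from the lowest to the highest library; the lines of the D2 and D1 nuclei do not overlap for any of the 25 genes.

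Celsr3, the gene named in the genotype label, had a level in D2 nuclei of 0.109, 0.151 and 0.125 in wild-type and 0.0665, 0.0849 and 0.0938 in heterozygous replicates 1 to 3. All 3 heterozygous libraries lay below all 3 wild-type ones, in the direction of the labels. The difference was -0.59 ± 0.16 (SE) on the log2(level + 0.01) scale used for all genotype differences below, and did not pass the adjustment over all genes (limma, adjusted p = 0.335, 0.0768 to 0.757 over the alternatives). The gene lies on chromosome 9 from 108826320 to 108852969 of GRCm38, on the plus strand. These 3' tags were not matched to a deleted segment.

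Across the 12819 genes tested in D2 nuclei, 1 passed the adjusted threshold of 0.05 (limma with Benjamini-Hochberg adjustment, 0.0078% of genes). This was Mid1, a microtubule-associated ubiquitin ligase whose mouse gene spans the pseudoautosomal boundary of the X chromosome (169685199 to 170005736, plus strand). Its level was 0.0516, 0.0276 and 0.0213 in wild-type and 0.205, 0.208 and 0.221 in heterozygous replicates 1 to 3. The heterozygous libraries lay close together and far above every wild-type library. Mid1 rose by 2.41 ± 0.22 (SE) on the log2 scale (adjusted p = 0.0178). In D1 nuclei of the same libraries the difference was 2.41 ± 0.21 (adjusted p = 0.00244), and the D2 and D1 differences differed by 0.00 (adjusted p = 0.9995). Where the level is this low, the size depends on the pseudocount: it ran from 1.23 to 2.72 over the alternatives, and the adjusted p from 4.86e-05 to 0.347.

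The call on Mid1 and the count of calls moved when single libraries were left out. Without wild-type replicate 2, heterozygous replicate 1 or heterozygous replicate 2, no gene passed, with adjusted p values of Mid1 of 0.0509, 0.287 and 0.347. Without heterozygous replicate 3, 2 genes passed and Mid1 stood at 0.0504. In these 4 cases, with 2 libraries left in a group, the difference of Mid1 stayed between 2.33 and 2.43 on the log2 scale. Without wild-type replicate 1, 147 genes passed, 38 higher and 109 lower in heterozygous nuclei. Weighting the libraries by their spread gave 69.

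An unadjusted p under 0.05 was reached by 1181 genes (9.21%), of which 609 (4.75%) were higher and 572 (4.46%) lower in heterozygous D2 nuclei. The libraries of the 2 genotypes did not overlap for 1960 genes (15.3%), 1271 higher (9.91%) and 689 lower (5.37%). The split moved with the scaling: 51.6% of the 1181 genes were higher as deposited, and after division by size factors 33.5% of the 1159 genes then at an unadjusted p under 0.05. With single libraries left out, the number of such genes ran from 714 (without heterozygous replicate 2) to 1783 (without wild-type replicate 1), and the share that was higher from 33.5% (without heterozygous replicate 2) to 68.2% (without heterozygous replicate 1). The size factors moved the median difference of all genes from 0.04 to 0.01 on the log2 scale. The genes described next are those of smallest p among the genes whose libraries did not overlap, after some names were left out. Left out were genes of the rule, Gm names with digits, Rik names and names ending in os. These were 1771 tested genes, of which 337 (19.0%) were lower and 39 (2.20%) higher at an unadjusted p under 0.05. The genotypes were separate for 373 of them (21.1%) on the lower side and 64 (3.61%) on the higher side. No gene but Mid1 passed the adjustment.

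Higher in heterozygous D2 nuclei was Rcan2, a regulator of the phosphatase calcineurin, with 1.92, 1.79 and 1.88 in wild-type and 2.58, 2.40 and 2.40 in heterozygous replicates 1 to 3 (0.40 ± 0.07 SE, adjusted p = 0.104). Junb, an activity-regulated AP-1 factor, had 0.111, 0.150 and 0.142 against 0.206, 0.205 and 0.240 (0.66 ± 0.13, adjusted p = 0.166). Lars2, the mitochondrial leucyl-tRNA synthetase, had 1.06, 1.15 and 1.17 against 1.40, 1.56 and 1.57 (0.42 ± 0.08, adjusted p = 0.119). For each of these genes every heterozygous library stood above every wild-type one. Parp3, a DNA repair ADP-ribosyltransferase, was low in all libraries, at 0.0318 to 0.0364 in wild-type and 0.0618 to 0.0947 in heterozygous nuclei. The other 7 were D7Ertd443e, the TGF-beta co-receptor Tgfbr3, Trank1, the bHLH-PAS factor Arnt2, the zinc-finger factor Zbtb20, the phosphoinositide phosphatase Fig4 and the RNA-binding protein Khdrbs2, with differences from 0.32 (Trank1) to 0.60 (D7Ertd443e) and adjusted p values from 0.119 (D7Ertd443e) to 0.194 (Khdrbs2).

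Lower in heterozygous D2 nuclei was Rpl29, a protein of the large ribosomal subunit, with 0.426, 0.297 and 0.327 in wild-type and 0.160, 0.145 and 0.177 in heterozygous replicates 1 to 3 (-1.06 ± 0.14 SE, adjusted p = 0.0652). Ribosomal protein genes have processed copies in the genome, so the assignment of its reads is uncertain. Brinp3, a secreted neural protein, had 2.37, 2.78 and 2.38 against 1.52, 1.89 and 1.93 (-0.50 ± 0.10, adjusted p = 0.177). Pigk, part of the GPI transamidase, had 2.17, 2.35 and 2.12 against 1.84, 1.73 and 1.71 (-0.33 ± 0.07, adjusted p = 0.181). In these genes too the genotypes did not overlap. The olfactory receptor genes Olfr239 (-0.84) and Olfr55 (-0.68) lie next to each other on chromosome 17 and may share reads. Aste1, Angptl1, Adam7, Abhd14a, the glucose transporter gene Slc2a2 and the antisense genes Macrod2os2 and Pcsk2os2 had differences from -0.66 (Angptl1) to -0.35 (Pcsk2os2), with adjusted p values from 0.104 (Angptl1) to 0.184 (Slc2a2).

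**Figure D3:**
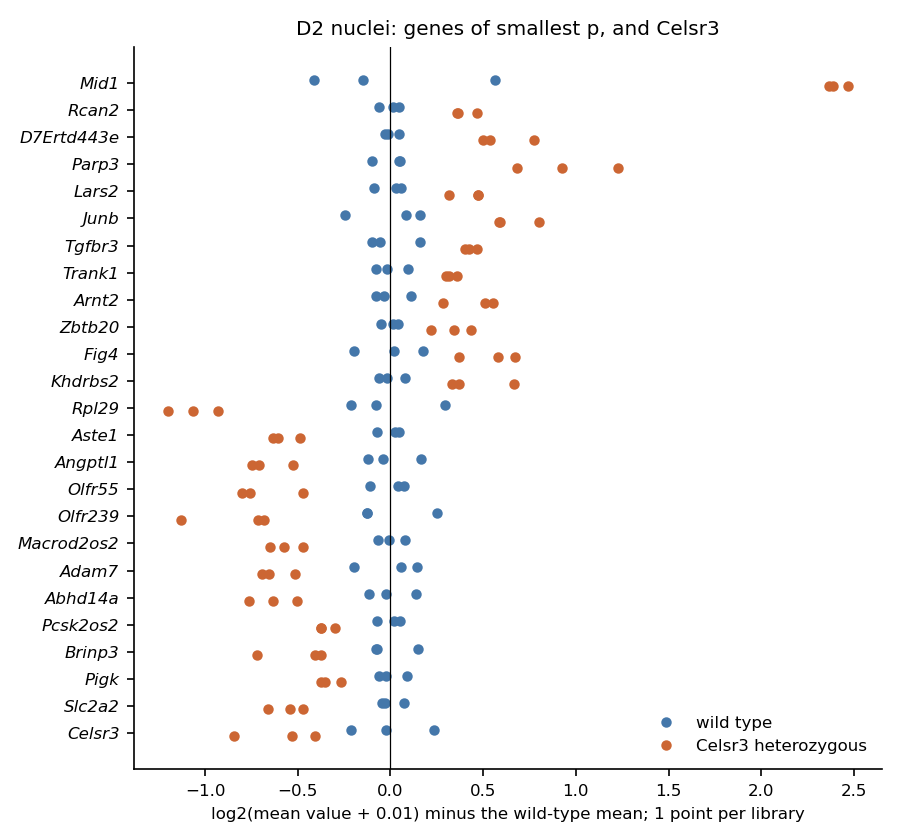
D2 nuclei of each library (1 point per library, blue wild type, orange heterozygous) for the 24 genes of smallest p with non-overlapping genotypes and for Celsr3, as log2(level + 0.01) minus the wild-type mean. Genes of the rule, Gm names with digits, Rik names and names ending in os were left out. The points of the genotypes are separate for all 25 genes, which the choice of genes fixed for all but Celsr3; Mid1 alone passed the adjustment (adjusted p = 0.0178).

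Several of these genes lie near Celsr3 on chromosome 9: Rpl29, Parp3 and Abhd14a at 2.40, 2.36 and 2.39 Mb and Aste1 at 3.43 Mb before its start, and Trank1 and Lars2 at 2.49 and 14.5 Mb after it. Of 257 other tested genes within 20 Mb of Celsr3, 24 (9.34%) were lower and 14 (5.45%) higher at an unadjusted p under 0.05, against 4.46% and 4.75% of all tested genes. The median difference of the 257 genes was 0.03, and the genotypes were separate for 26 lower (10.1%) and 23 higher genes (8.95%), against 5.37% and 9.91% of all tested genes. Within 5 Mb there were 12 lower (10.9%) and 7 higher (6.36%) of 110. On the rest of the chromosome the lower genes were 4.69% of 490. Neighbouring genes are not independent, so no test was made. Among the lower genes near Celsr3 were Gm and Rik genes, such as Gm47134 (-0.92) and Gm29123 (-0.57). Over all tested genes, the names left out of the ranking above were lower in 19.0%. The part of such genes in the share near Celsr3 was not tested.

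Genes were also grouped by overlap with a gene on the opposite strand. Of 2088 genes that overlap one of higher value, 342 (16.4%) were lower at an unadjusted p under 0.05 and 42 (2.01%) higher, with a median difference of -0.06 on the log2 scale. Of 7486 genes with no gene on the opposite strand, 133 (1.78%) were lower and 379 (5.06%) higher, with a median of 0.06. After division by size factors the overlapping genes were lower in 430 (20.6%) and higher in 37 (1.77%), and the genes without an overlap lower in 196 (2.62%) and higher in 239 (3.19%). The overlapping genes were 59.8% of the 572 lower genes and 16.3% of all tested genes. The same was seen in D1 nuclei, where 18.9% of the overlapping genes were lower, against 4.09% of all genes tested there. An example, chosen after its values were seen, is the antisense gene A330015K06Rik, which overlaps the potassium channel subunit gene Kcnab1: its level was 15.73, 15.05 and 15.55 in wild-type and 10.97, 10.11 and 11.28 in heterozygous D2 nuclei (-0.52 ± 0.06 SE, adjusted p = 0.0652), and in D1 nuclei it passed the adjustment (-0.57, adjusted p = 0.00865). Strand use in counting is not given in the sources used here, so reads of a gene and of its opposite-strand partner may not have been told apart. Aste1, Angptl1, Macrod2os2 and Pcsk2os2 among the named lower genes overlap such a partner.

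**Figure D4:**
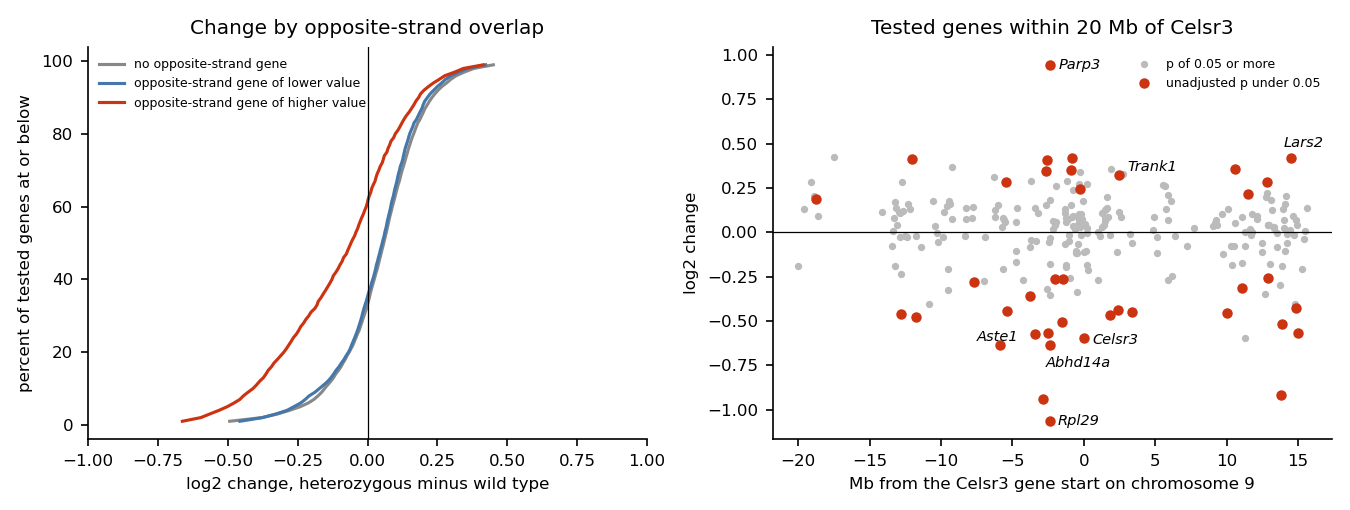
Genotype difference in D2 nuclei on the log2(level + 0.01) scale: the percent of tested genes at or below each difference, by overlap with a gene on the opposite strand (medians -0.06, 0.05 and 0.06 for a partner of higher value, of lower value and none), and the difference of each tested gene within 20 Mb of Celsr3 against its distance from the Celsr3 start. Red points have an unadjusted p under 0.05. Celsr3 itself is 1 of them, and of the other red points 24 lie below 0 and 14 above.

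Among the genes that define D2 identity none passed the adjustment between genotypes. To compare the genes of the rule itself, each was left out in turn and nuclei were chosen with a sum of at least 3 over the other pair. Drd2 then had a level of 3.38, 3.92 and 3.77 in wild-type and 3.53, 3.79 and 4.09 in heterozygous replicates (0.04 ± 0.08 SE, adjusted p = 0.901). Adora2a had 1.69, 1.76 and 1.66 against 1.73, 1.75 and 1.84 (0.06 ± 0.06, adjusted p = 0.824). Penk had 5.35, 5.14 and 4.60 against 4.49, 4.40 and 4.72 (-0.15 ± 0.07, adjusted p = 0.599). In all 3 genes the genotypes overlapped. Of 10 D2 markers outside the rule that were tested, none was at an unadjusted p under 0.05, against 4.75% higher and 4.46% lower of all 12819 genes. With 10 genes that count says little. The median difference was 0.04, equal to that of all 12819 genes.

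Among 28 tested receptor genes, none passed the adjustment, 5 were higher and 2 lower at an unadjusted p under 0.05 (17.9% and 7.14%, against 4.75% and 4.46% of all tested genes), and the median difference was 0.04, as over all tested genes. The dopamine receptor Drd3 had 0.0362, 0.0337 and 0.0293 in wild-type and 0.0823, 0.0866 and 0.0430 in heterozygous replicates. All heterozygous libraries were above the wild-type ones, at a level near the lower limit of testing (0.86 ± 0.23 SE, adjusted p = 0.332). The others on the higher side were the kappa opioid receptor Oprk1 (0.51), the serotonin receptor Htr6 (0.46), the GDNF receptor Gfra1 (0.51) and the muscarinic receptor Chrm1 (0.24), and those on the lower side the serotonin receptor Htr4 (-0.47) and Chrm3 (-0.26). For Htr4 and Chrm3 the genotypes overlapped.

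In the cAMP and G-protein pathway, which carries the Drd2 and Adora2a signals, 51 genes were tested and none passed the adjustment. At an unadjusted p under 0.05, 5 were higher (9.80%, against 4.75% of all tested genes) and none lower (against 4.46%). Adcy5 had 4.65, 4.87 and 4.87 in wild-type and 5.50, 5.35 and 5.31 in heterozygous replicates (0.17 ± 0.06 SE, adjusted p = 0.462). Pde4b, a cAMP phosphodiesterase, had 7.59, 6.95 and 7.29 against 8.65, 8.73 and 8.21 (0.23 ± 0.06, adjusted p = 0.335). In both the heterozygous libraries were all higher. The protein kinase A regulatory subunits Prkar1b (0.26) and Prkar2b (0.20) and the inhibitory G protein Gnai1 (0.25) were the other 3. The median was 0.06 and 37 of 51 genes (72.5%) lay above 0, against 61.5% of the 12819 tested genes. After scaling by size factors the median was 0.02 and 30 lay above 0, against 0.01 and 6609 of 12814 tested genes.

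Transcription factors of spiny neurons had a median of 0.14, with 24 of 29 tested genes (82.8%) above 0, against 61.5% and a median of 0.04 over all tested genes. At an unadjusted p under 0.05, 7 were higher (24.1%, against 4.75% of all) and 1 lower (3.45%, against 4.46%), and none passed the adjustment. Foxp2 had 1.63, 1.53 and 1.35 in wild-type and 1.81, 2.01 and 1.93 in heterozygous replicates (0.35 ± 0.09 SE, adjusted p = 0.253). Bcl11b (Ctip2), a factor that spiny neurons need to mature, had 3.671, 3.616 and 3.742 against 4.206, 4.104 and 4.300 (0.19 ± 0.06, adjusted p = 0.392). Meis1, a homeobox factor, had 1.35, 1.48 and 1.61 against 0.909, 1.05 and 1.30 (-0.45 ± 0.12, adjusted p = 0.333). The genotypes were separate in each of these 3 genes. Foxo1 (0.24), Foxo3 (0.29), Mef2d (0.24), Rarb (0.19) and Tshz2 (0.46) were the other higher ones. After scaling by size factors the median was 0.10 and 21 of 29 lay above 0, against 0.01 and 6609 of 12814 tested genes.

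Of 16 tested immediate early genes, which neurons switch on after activity, 13 (81.25%, against 61.5% of all tested genes) lay above 0 with a median of 0.25. At an unadjusted p under 0.05, 4 were higher (25.0%, against 4.75% of all) and none lower (against 4.46%), and none passed the adjustment. Besides Junb these were Btg2 (0.81), Npas4 (0.94) and Egr4 (0.59). Npas4 had 0.0593, 0.189 and 0.0684 in wild-type and 0.125, 0.280 and 0.186 in heterozygous replicates, so the genotypes overlapped. After scaling by size factors, 11 of 16 lay above 0, against 6609 of 12814 tested genes. The summed level of the 19 genes of the list was 3.37, 5.85 and 5.19 in wild-type and 4.04, 5.40 and 5.20 in heterozygous replicates, so the heterozygous libraries lay within the wild-type range and wild-type replicate 1 was lowest. Among the 37 glutamate and GABA receptor genes tested, the metabotropic receptor Grm8 (-0.49) and the kainate subunit Grik4 (-0.34) were lower and Gabrb1 (0.25) higher at an unadjusted p under 0.05 (5.41% and 2.70%, against 4.46% and 4.75% of all tested genes). Among 55 ion channel genes 4 were higher (7.27%, against 4.75% of all tested genes), among them the M-current subunit Kcnq5 (0.29) and the T-type calcium channel Cacna1i (0.23). The calcium channel subunit Cacna2d2 (-0.27), which lies 1.43 Mb before the Celsr3 start, was lower (1.82%, against 4.46%). Of 5 neuropeptide genes tested, neurotensin (Nts, -0.52) was lower at an unadjusted p under 0.05, 1 of 5 against 4.46% of all tested genes. None of these passed the adjustment.

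Of the 11 planar cell polarity genes tested, Celsr3 was the 1 at an unadjusted p under 0.05 (9.09% lower, against 4.46% of all tested genes). Celsr2, the other seven-pass cadherin gene tested, had 0.226, 0.218 and 0.204 in wild-type and 0.255, 0.238 and 0.243 in heterozygous replicates (0.18 ± 0.09 SE, adjusted p = 0.618). Its genotypes did not overlap, nor did those of Dvl2 (0.26), 2 of 11 on the higher side against 9.91% of all tested genes. The membrane receptor Fzd3, which acts with Celsr3 in axon guidance, had 0.681, 0.542 and 0.503 against 0.644, 0.666 and 0.617 (0.17 ± 0.11, adjusted p = 0.684). The intracellular proteins Prickle1 (-0.03), Prickle2 (0.09), Dvl1 (-0.08) and Dvl3 (-0.06) were within 0.1 of 0. The oligodendrocyte and microglia genes described above had negative medians over the tested members, -0.48 with 0 of 4 above 0 and -0.24 with 0 of 5 above 0, and Cx3cr1 and P2ry12 of the microglia were lower at an unadjusted p under 0.05, with separate genotypes (2 of 5, against 4.46% lower and 5.37% separate and lower over all tested genes). So was Rgs5, the 1 mural cell gene tested (-0.67), and Cldn5 (-0.77) of 3 endothelial genes (median -0.20, 1 of 3 above 0) was lower with overlapping genotypes, while Pecam1 (-0.20, unadjusted p = 0.264) was lower in every heterozygous library than in every wild-type one. The medians were -0.18 for 2 oligodendrocyte precursor genes (0 above 0) and -0.03 for 4 astrocyte genes (2 above 0). None of these genes passed the adjustment. Their part in the differences given here was not tested. Cx3cr1, counted above among the lower genes near Celsr3, lies 11.1 Mb after the Celsr3 start, and the oligodendrocyte gene Mobp (-0.60) 11.3 Mb after it.

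The genotype effect in D2 nuclei was set against that in D1 nuclei of the same libraries. Of 9945 genes tested in both classes none passed the adjusted threshold for a difference in effect (limma, smallest adjusted p = 0.944, 0% of genes), with 520 (5.23%) at an unadjusted p under 0.05, 205 of them (2.06% of genes) more positive and 315 (3.17%) more negative in D2 nuclei. After division by size factors these were 263 and 262. No gene passed in any of the 13 alternatives, and no other tool was run. The alternative with stricter membership tested only 1292 genes, without Mid1, on 16 to 45 D1 nuclei per library. On simulated data for this comparison, 80% of 100 genes changed by 1 on the log2 scale and 99% of 100 changed by 2 were recovered. There were 7 false calls. All these genes were changed in the same simulated data set, which eases the adjusted threshold. The recovered shares therefore do not hold where few genes change. The noise was drawn independently per gene, and smaller changes were not simulated. Genes were ranked by p among those whose D2 minus D1 values did not overlap between genotypes, with the same names left out as above. The first on the lower side were Ppp1r16a (D2 -0.11, D1 0.51), Lyrm4 (0.08, 0.72), Pcdh15 (-0.04, 0.72), Rorb (-0.14, 0.84) and Taldo1 (-0.15, 0.26). On the higher side they were Ube2q1 (0.26, -0.24), Csrnp2 (0.33, -0.22), Kin (0.13, -0.49), Igf2bp2 (0.27, -0.22) and Usp6nl (0.09, -0.44). All had an adjusted p of 0.944 (limma). In D1 nuclei alone 4 of 9957 genes passed (0.0402%), against 1 in the D2 nuclei.

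D2 nuclei varied among themselves. Over 8757 genes with a mean of at least 0.1 the median ratio of variance to mean among nuclei of a library was 1.02, and 3.85% of genes exceeded 2. Among the 12 highest were the synaptic and signalling genes Galntl6 (11.3), Phactr1 (10.2), Lsamp (10.1), Pcdh9 (12.4) and Cacnb2 (9.99), and the nuclear RNA Malat1 (52.6). The astrocyte genes Apoe (22.9), Gpc5 (18.0) and Slc1a2 (13.5), Bsg (11.9), and Erbb4 (18.6) and Adarb2 (15.1), which are high in interneurons, were also there. Malat1 and the synaptic and signalling genes were abundant, with levels from 10.93 (Pcdh9) to 66.82 (Phactr1) and 587.7 (Malat1). The others had levels from 0.383 (Adarb2) to 2.635 (Apoe). The ratios were not compared with those of genes of similar level, so they do not rank genes by variation relative to level. These ratios are medians over the libraries, which differed widely for several genes: Bsg ran from 1.60 to 28.7, Adarb2 from 8.44 to 78.1, Erbb4 from 6.22 to 33.4 and Apoe from 7.25 to 31.6, whereas Pcdh9 ran from 10.3 to 14.1. Apoe had a level of 2.64 in D2 nuclei and 13.1 in nuclei outside the spiny neurons, and Gpc5 0.391 and 11.7. Under the stricter rule 6 of the 12 were still among the highest. Gpc5, Adarb2 and Bsg came down to ratios of 2.17, 2.11 and 1.75, and Apoe, Erbb4 and Slc1a2 to 4.98, 5.845 and 4.07.

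Genes that varied together were sought with 11 anchor genes of striatal compartments, as the median over 6 libraries of the correlation across nuclei of log2(value + 1). The nuclei of a library share its preparation and sequencing, so these are descriptions. Cnr1, the cannabinoid receptor, which is high in dorsolateral striatum, had the strongest partners: Cacnb2 (r = 0.569), Galnt17 (0.530), Hs6st3 (0.525), Galntl6 (0.498) and Dgki (0.494), each over 8756 genes compared in 911 to 1631 nuclei per library. Cntnap5a (-0.534) and March1 (-0.503) went the other way. The striosome gene Sema5b went with Alk (0.464), Gpc6 (0.371), Tll1 (0.340), Galntl6 (0.307) and Kcnt2 (0.306), and Bach2 with Alk (0.362), Gpc6 (0.303) and Sema6d (0.282). Oprm1, the mu opioid receptor, went with other genes, March1 (0.340), Prkg1 (0.326) and Pde1a (0.294), although it marks striosomes too. The ventral gene Crym went with Prkg1 (0.260), March1 (0.243), Cntnap5a (0.213) and Cadm1 (0.209), and Wfs1 with Prkg1 (0.215), so Prkg1 and March1 were partners of Oprm1 and of Crym. The matrix gene Epha4 went with Lrp1b (0.324) and Opcml (0.306) and against Alk (-0.298) and Gpc6 (-0.298). For the matrix gene Id4 no gene reached 0.2.

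Sums of striosome genes (Oprm1, Kremen1, Sema5b, Bach2) split the D2 nuclei into ranges, not cell types: 1928 nuclei had a sum of at least 3, 1145 stood 1 below, and 2054 stood at 0. Nuclei at 3 or more had a mean Alk value of 1.55 ± 0.206 against 0.0629 ± 0.012 at 0 (SD, n = 6 libraries), 24.6-fold. The serotonin receptor Htr7 had 0.237 ± 0.0544 against 0.0184 ± 0.00503, 12.9-fold, and was higher in 6 of 6 libraries. Foxp2 was 2.02-fold, Htr2a 2.45-fold, Gpc6 3.79-fold and Pcdh15 5.35-fold higher in nuclei of high sum. Alk and Gpc6 were named above as partners of Sema5b and Bach2, which are in the sum, and Pcdh15 correlated with Bach2 at 0.25, so their folds restate such correlations. Of the 6 matrix genes, Epha4 (0.626 of the level at 0), Id4 (0.589), Sv2b (0.657) and Rasgrp2 (0.771) were lower in 6 of 6 libraries, Calb1 (0.976) was higher in 2 of 6 and Gda (1.198) in 5 of 6. The serotonin receptor Htr4 (0.503) was lower in 6 of 6. Of the genes of other cell types, Erbb4 was 2.01-fold and Gpc5 1.59-fold higher at high sum in 6 of 6 libraries and Adarb2 2.27-fold in 5 of 6, while Apoe (0.750 of the level at 0), Bsg (0.742) and Slc1a2 (0.899) were higher in 0, 1 and 2 of 6. Their part in this split was not tested. With Bach2 left out of the sum, Alk was 14.0-fold, Htr7 11.8-fold and Epha4 0.557 of the level at 0, whereas Erbb4 stood at 1.06, Gpc5 at 0.740 and Adarb2 at 0.947 of it. Nuclei of high sum had a median of 3262 genes and those at 0 had 3228.

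Ventral striatal genes (Crym, Wfs1, Nnat, Cartpt, Stard5) gave a second range, with 866 nuclei at a sum of at least 3, 1035 at 1 below, and 2829 at 0. Prkg1, a cGMP-dependent kinase, had 4.32 ± 0.654 at high sum and 0.702 ± 0.126 at 0, 6.15-fold, which restates its correlations with Crym and Wfs1. Drd3, a receptor of the ventral striatum, had 0.125 ± 0.0979 and 0.0300 ± 0.0149, 4.15-fold, and P2ry1 was 3.83-fold and Oprm1 2.75-fold higher. Erbb4 was 2.24-fold higher (1.26 against 0.561, 6 of 6 libraries), and its part in this split was not tested. The dorsal genes Cnr1 (0.351 of the level at 0), Reln (0.554) and Coch (0.553) and the receptor Chrm3 (0.504) were lower. A split by Cnr1 alone, added after the correlations had been seen, ran the opposite way: from Cnr1 at 0 (2156 nuclei) to at least 3 (2724 nuclei) Prkg1 went from 3.28 to 0.272, Drd3 from 0.107 to 0.00867, Oprm1 from 0.577 to 0.176 and March1 from 3.60 to 0.508, while Chrm3 went from 2.12 to 4.77 and Galnt17 from 1.82 to 5.32. March1 and Galnt17 were named above for their correlation with Cnr1, so their values restate it. Genes of other cell types moved with this split: Apoe went from 4.07 to 1.94, Slc1a2 from 2.53 to 1.26, Gpc5 from 0.704 to 0.214 and Erbb4 from 1.11 to 0.365, lower at high Cnr1 in 6 of 6 libraries. Their part in the split was not tested.

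**Figure D5:**
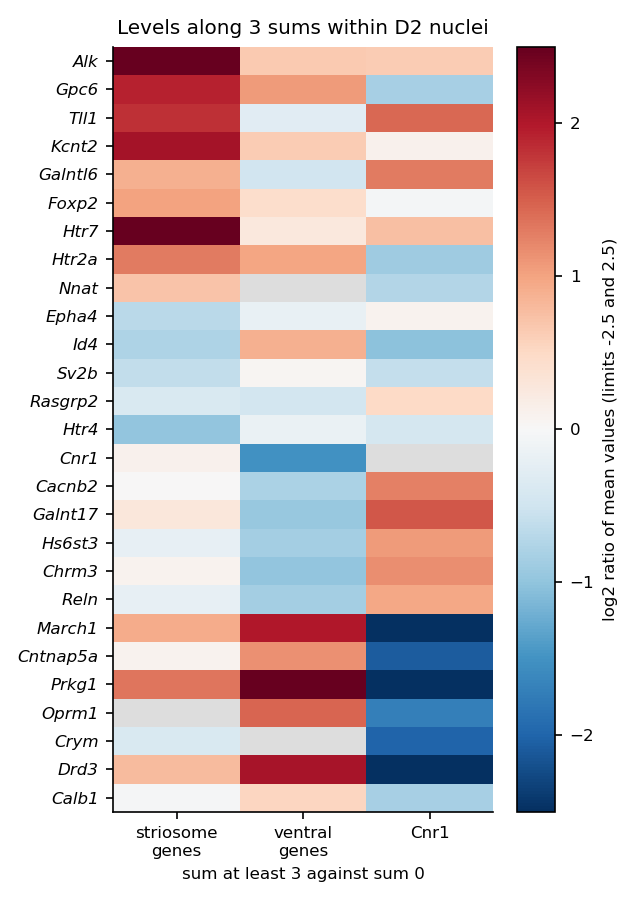
Log2 ratio of mean values (mean of 6 libraries) in D2 nuclei with a sum of at least 3 over nuclei with a sum of 0, for sums of the striosome genes, of the ventral genes and for Cnr1 alone; colours are limited to -2.5 and 2.5 and grey marks genes inside the sum. Alk and Htr7 have the deepest red for striosome genes, 24.6-fold and 12.9-fold, and Prkg1 and Drd3 are red for ventral genes and blue for Cnr1.

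The shares of D2 nuclei in these ranges were compared between genotypes over libraries. A striosome sum of at least 3 was found in 22.5%, 29.1% and 28.5% of D2 nuclei in wild-type and 27.2%, 32.3% and 25.2% in heterozygous libraries (26.7 ± 3.64% against 28.2 ± 3.64%, SD over 3 libraries per genotype; two-sided exact permutation test, p = 0.7). A ventral sum of at least 3 was found in 14.3%, 7.91% and 12.1% against 13.1%, 17.3% and 12.4% (11.4 ± 3.23% against 14.3 ± 2.66%, exact permutation p = 0.4). Wild-type replicate 2, which had the largest share of D2 nuclei, had the lowest ventral share. At a ventral sum of at least 5 the shares were 2.85%, 1.41% and 2.49% against 2.96%, 4.46% and 3.32%, all higher in heterozygous libraries (exact permutation p = 0.1, the smallest possible). Cnr1 of at least 3 was found in 34.7%, 43.35% and 48.05% in wild-type and 35.3%, 30.5% and 41.2% in heterozygous libraries. The groups overlapped (42.0 ± 6.78% against 35.7 ± 5.35%, exact permutation p = 0.3). Several genes named for genotype also differed along Cnr1. Against Cnr1 at 0, Drd3 (0.081), Khdrbs2 (0.283), Gfra1 (0.417), Tshz2 (0.529), Oprk1 (0.654) and Htr4 (0.738) were lower at 3 or more. Chrm3 (2.25), Meis1 (1.67) and Bcl11b (1.25) were higher. The part of this split in them was not tested. The tested ventral genes had a median difference of 0.36, with 6 of 6 above 0, and the tested dorsal genes -0.05, with 0 of 4 above 0, against 0.04 and 61.5% over all tested genes. Of these 10 genes Drd3 was the 1 at an unadjusted p under 0.05, against 9.21% of all tested genes, and none passed the adjustment.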

How the data were processed

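The deposited table holds 24841 genes and 48834 nuclei of 6 libraries (3 wild type, 3 Celsr3 heterozygous). Its values, as deposited by the authors, are whole numbers but were read as a score, a value already corrected for depth, because totals per nucleus varied by 10.7% (coefficient of variation) from 4523 to 10638. Per the submitters' processing notes, Cell Ranger, Seurat 4.1, mm10 and GRCm38 were used. Their roles, filters and strand use are not given in the sources used here, and no counting intervals were computed. Genes were placed with GENCODE M21 on GRCm38, matching 98.7% of tested genes by symbol.

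The members and gene lists were chosen with earlier results of these data known. The mean value per nucleus of each gene in each library, as log2(mean + 0.01), was the unit of testing. Genotypes were compared in limma 3.58.1 (R 4.3.3) with a trended prior, no covariate and Benjamini-Hochberg adjustment over all genes with a mean of at least 0.02 and a summed value averaging at least 30 per library. The pseudocount understates differences of low genes. The D2 minus D1 difference per library was tested likewise. Nuclei were never replicates: n is 3 libraries per genotype. The labels call them biological replicates and do not say whether each is 1 mouse. Shares and medians were compared with exact two-sided permutation tests. Scrublet doublet scores (scanpy 1.11.5, Python 3.11.15) served to leave out nuclei as an alternative, and none were left out otherwise. The genotype step was tested on simulated data for 12819 genes: 74% of 100 genes changed by 1 on the log2 scale and 97% of 100 changed by 2 were recovered, with 7 false calls. All these genes were changed in the same simulated data set, which eases the adjusted threshold. The recovered shares therefore do not hold where few genes change: Rpl29, at -1.065 in the data, had an adjusted p of 0.0652 (limma). The noise was drawn independently per gene, and smaller changes were not simulated.

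Named genes are Celsr3, every called gene, and the 12 higher and 12 lower genes of smallest p whose libraries do not overlap between genotypes. They are 5 per direction for the D2 minus D1 effect, the 15 farthest above and 10 farthest below D1 for levels, the 12 of highest variance over mean, and the genes best correlated with 11 anchors, at 0.2 or more. Genes named Gm with digits, Rik genes and names ending in os were left out, as were the genes of the membership rule. Members of the gene lists may also be named. Alternatives were other pseudocounts, no filter, size factors, array weights, a replicate block, each library left out, other membership limits, doublet scores, and nuclei matched on genes per nucleus.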

Additional observations from a re-analysis of the deposited data

How the results depend on the processing

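The count of genes past the adjusted threshold between genotypes (1 as reported) was 1 with pseudocounts of 0.1 and 0.001, size factors, doublet scores above 0.25 left out and nuclei matched on genes. It was 2 without the filter on low values, 3 with stricter and 3 with looser membership, and 69 with array weights, and it ranged from 0 to 147 when 1 library was left out. The cause was not tested. Mid1 kept its direction in every alternative and lost the call, as the text gives, when wild-type replicate 2 or any heterozygous replicate was left out, which leaves 2 libraries in a group. With Adora2a left out of the choice of nuclei its adjusted p was 0.0544. Over 26 named genes and their alternatives, 415 values in all, 382 stayed on their side of the threshold, 29 newly passed it, 4 no longer did and 0 changed direction.

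Replicate numbers 1 to 3 occur in both genotypes, but nothing in the labels says that they pair the mice. Deviations of same-numbered libraries correlated at 0.253, 0.0645 and 0.170, not all over 0.1, and wild-type replicate 2 correlated best with heterozygous replicate 3 (0.160). With the replicate number as a block, 5 genes passed (1 higher, 4 lower), Mid1 at an adjusted p of 0.0228 and Rpl29 at 0.0451, and 0 for the D2 minus D1 difference. The blocked exact p of the shares was 0.5 among all nuclei, 0.5 among D1 plus D2 nuclei, 0.25 among nuclei with the spiny neuron sum, 0.75 for striosome and 0.75 for ventral sums. The smallest p that the blocked test can give is 0.25.

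Leaving out 1 library moved the difference in D2 share of all nuclei (-2.40 percentage points) between -4.24 and 0.209, positive without wild-type replicate 2, and the share of D1 plus D2 nuclei between -7.09 and -2.09. The share of nuclei with the spiny neuron sum (-4.12) moved between -4.96 and -2.68. Median genes per nucleus moved between -15.2 and 133, and the median summed value between -9 and 27.2. The striosome share difference (1.52) moved between -0.578 and 3.02 and was -0.186 at a sum of at least 5, and the ventral difference (2.86) moved between 1.11 and 4.29. Stricter membership gave 90 genes above and 150 below D1, on 16 to 45 D1 nuclei per library, and 6 of 12 genes in the variation list.

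With 3 libraries a group, exact tests cannot fall below 0.1 without the block, and not below 0.25 with it. Depth before correction is unknown. Genes near a level of 0.02 depend most on the pseudocount. Alternatives with looser D1 membership, a rule gene left out, Bach2 left out, the block for sums, the split by Cnr1, and the block and left-out libraries for the share of nuclei with the spiny neuron sum were chosen after seeing the data.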
